A study of Mus musculus with 8 samples.

Results

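The genes described here are the enzymes that write, copy and oxidize DNA methylation: the methyltransferase genes Dnmt1, Dnmt3a, Dnmt3b and Dnmt3l, Uhrf1, and the dioxygenase genes Tet1, Tet2 and Tet3. They were chosen by name, and every probe set that carries the symbol of 1 of these 8 genes alone was kept, which gave 20 of the 45101 probe sets on the array and 8 of 18194 named genes. RNA came from mouse embryonic stem cells (ESCs) of the NS tet-off line, which is male and 129sv. In this line both alleles of Gnl3, the gene of nucleostemin (NS), are disrupted, and NS comes from a cDNA at the ROSA26 locus that is transcribed until doxycycline (Dox) shuts it off. All groups share this genotype and were grown without feeder cells. The 4 backgrounds were cells with an empty vector, cells in the 2i condition (inhibitors of MEK and of GSK-3), and cells with a stably integrated Nanog or Esrrb expression vector. Each background has 1 Dox-untreated array (NS-expressing) and 1 array after 6 days of Dox (NS-nonexpressing), called here a pair. No condition has a replicate. Values are log2 signals, and the log2 ratio of a pair is its Dox-treated minus its Dox-untreated signal.

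DNA methylation in mammals is placed on CpG dinucleotides. Dnmt3a and Dnmt3b place it anew, with Dnmt3l as a cofactor that has no catalytic activity of its own. At replication Uhrf1 recognizes hemimethylated CpGs and brings in Dnmt1, which copies the mark to the new strand. The Tet enzymes oxidize 5-methylcytosine to 5-hydroxymethylcytosine and beyond, a route to its removal. Mouse ESCs express most of these genes, and in ESCs kept in 2i the genome is known to carry less methylation than in serum. The arrays measured RNA only, and no methylation was measured here.

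The signal of Gnl3 was 13.47 to 13.68 without Dox and 7.79 to 9.13 with it, so each array fitted its Dox label. Forced expression was not seen in the brightest probe sets of Nanog and Esrrb. Nanog read 12.35 and 12.23 on the Nanog arrays and 12.49 to 13.23 on the others. Esrrb read 11.27 and 11.38 on the Esrrb arrays and 10.38 to 11.63 on the others. Whether these probe sets detect the vector transcripts was not analysed. The labels of the 2i pair were checked on genes that MEK and Erk signalling induces. Dusp6, a phosphatase gene of this kind, had a Dox-untreated signal of 10.97 with the empty vector and of 10.95 in 2i, but a Dox-treated signal of 11.40 and 7.64 in these backgrounds. Spry4, an inhibitor of the same pathway, was at 9.92 on the 2i Dox-untreated and at 4.07 on the 2i Dox-treated array. Of the other listed targets, Etv4, Dusp4 and Spry2 were also lower in 2i than with the empty vector after Dox. Etv5 and Egr1 were not, at 12.07 and 9.80 in 2i against 11.97 and 9.41. By Dusp6 and Spry4, the library labelled 2i Dox-untreated showed no sign of MEK inhibition. The 2i ratios of the 8 genes are therefore also given as measured from the empty vector Dox-untreated array, and the tests without the 2i pair. Either reference lacks both Dox and a sign of MEK inhibition. In every 2i ratio, 2i and loss of NS thus cannot be told apart. Of 16 listed genes called in limma's test of the Dox response common to the 4 pairs, Gnl3 included, 3 passed without the 2i pair (Gnl3, Idh1 and Otx2). The adjusted p of the 16 then ran from 0.02602 to 0.1135. All 16 kept their sign, but the test that picked them already used the other pairs, so this is no separate check. Over all genes, 3.86% were called higher and 3.49% lower in the common response. The 6 ESC markers, among them Pou5f1, summed to a linear signal between 40492 and 46558 on all 8 arrays. Dppa5a, at 14.19 to 14.46, carries much of this sum, which hardly registers the dimmer Lin28a and Utf1. Trophoblast and epithelial markers (Krt8, Krt18, Krt19 and 6 others) summed to 892 before and 12292 after Dox in the empty vector pair, to 1356 and 4628 in the 2i pair, to 1419 and 1428 in the Nanog pair, and to 1979 and 1758 in the Esrrb pair. This sum was thus high on the same Dox-treated arrays on which Uhrf1 is low below, and the keratins Krt8, Krt18 and Krt19 make up most of it. The other markers followed it less closely. All 9 had ratios above 0 in the empty vector and 2i pairs, but that of Cdx2 was 0.11 in 2i. Hand1 had 0.54 with the empty vector and 0.53 with Nanog, and Elf5 lay between 3.20 and 3.47, a dim signal. The sum of 6 fibroblast markers lay between 159 and 303. In such bulk RNA, fewer cells of a type and less RNA per cell cannot be told apart.

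The promoters of 4 of the genes are printed because they show how unlike the regulatory sequences of the family are. Each is the RefSeq window of the GRCm38.p6 mouse assembly from 250 bases before to 50 after a transcription start, in the direction of the gene. Capitals mark the letters TTTCGCGC or TTTGGCGC on either strand, 2 spellings of the site that E2F factors of the G1/S transition bind. The Uhrf1 window is chr17:56304063-56304362 on the + strand, that of Dnmt1 is chr9:20952574-20952873 on the - strand, and those of Dnmt3b and Dnmt3l are chr2:153649199-153649498 and chr10:78042037-78042336, both on the + strand.
Uhrf1: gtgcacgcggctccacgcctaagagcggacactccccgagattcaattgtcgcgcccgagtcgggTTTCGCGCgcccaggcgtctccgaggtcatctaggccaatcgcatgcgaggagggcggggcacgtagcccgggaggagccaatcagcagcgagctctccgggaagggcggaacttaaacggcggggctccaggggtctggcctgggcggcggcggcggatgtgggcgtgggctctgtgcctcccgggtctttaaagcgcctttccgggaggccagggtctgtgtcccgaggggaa
Dnmt1: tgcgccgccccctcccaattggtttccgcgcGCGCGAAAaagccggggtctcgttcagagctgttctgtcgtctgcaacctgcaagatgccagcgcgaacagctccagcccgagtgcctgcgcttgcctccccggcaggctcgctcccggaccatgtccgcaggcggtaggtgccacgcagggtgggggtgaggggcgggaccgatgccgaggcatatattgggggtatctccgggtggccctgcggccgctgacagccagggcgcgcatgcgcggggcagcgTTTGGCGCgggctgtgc
Dnmt3b: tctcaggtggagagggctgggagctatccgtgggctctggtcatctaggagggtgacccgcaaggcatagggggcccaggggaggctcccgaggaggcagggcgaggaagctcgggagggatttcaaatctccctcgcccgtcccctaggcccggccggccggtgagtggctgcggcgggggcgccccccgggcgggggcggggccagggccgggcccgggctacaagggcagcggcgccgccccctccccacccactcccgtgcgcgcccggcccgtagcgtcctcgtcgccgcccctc
Dnmt3l: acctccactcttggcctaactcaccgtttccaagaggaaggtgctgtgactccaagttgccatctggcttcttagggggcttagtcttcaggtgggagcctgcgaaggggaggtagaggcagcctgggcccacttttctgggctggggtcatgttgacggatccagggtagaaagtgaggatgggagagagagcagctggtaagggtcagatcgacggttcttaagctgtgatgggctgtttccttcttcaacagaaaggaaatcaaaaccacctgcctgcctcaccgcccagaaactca
The letters stand once in the Uhrf1 window and at 2 places in the Dnmt1 window, and in 0.813% of all 32851 promoters. The letters were chosen after the signals had been seen. Of the 8 genes only Uhrf1 and Dnmt1 have them in any of their 15 listed windows, and of 13 S phase genes with a listed promoter 6 do, namely Cdk1, Cdt1, Mcm3, Mcm5, Mcm6 and Mcm7. The Uhrf1 and Dnmt1 windows hold 33 CpG dinucleotides each and that of Dnmt3b holds 30, against a median of 7 over all promoters. The Dnmt3l window holds 6. Further listed starts hold fewer, with 12 for Uhrf1, 12 and 2 for Dnmt1, and 4 and 3 for Dnmt3l. The other genes run from 17 in Tet1 and 22 in Tet3 to 57 in Tet2, while the 3 listed starts of Dnmt3a hold 46, 47 and 18. The letters AAGGTCA, a core of the Esrrb site, were in 4.72% of all promoters and in 0 of the 15 windows. The Stat letters TTCNNNGAA were in 8.30% of all promoters and in 1 of the 15, a downstream start of Dnmt3l. A match describes these letters only and shows no binding.

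**Figure D1:**
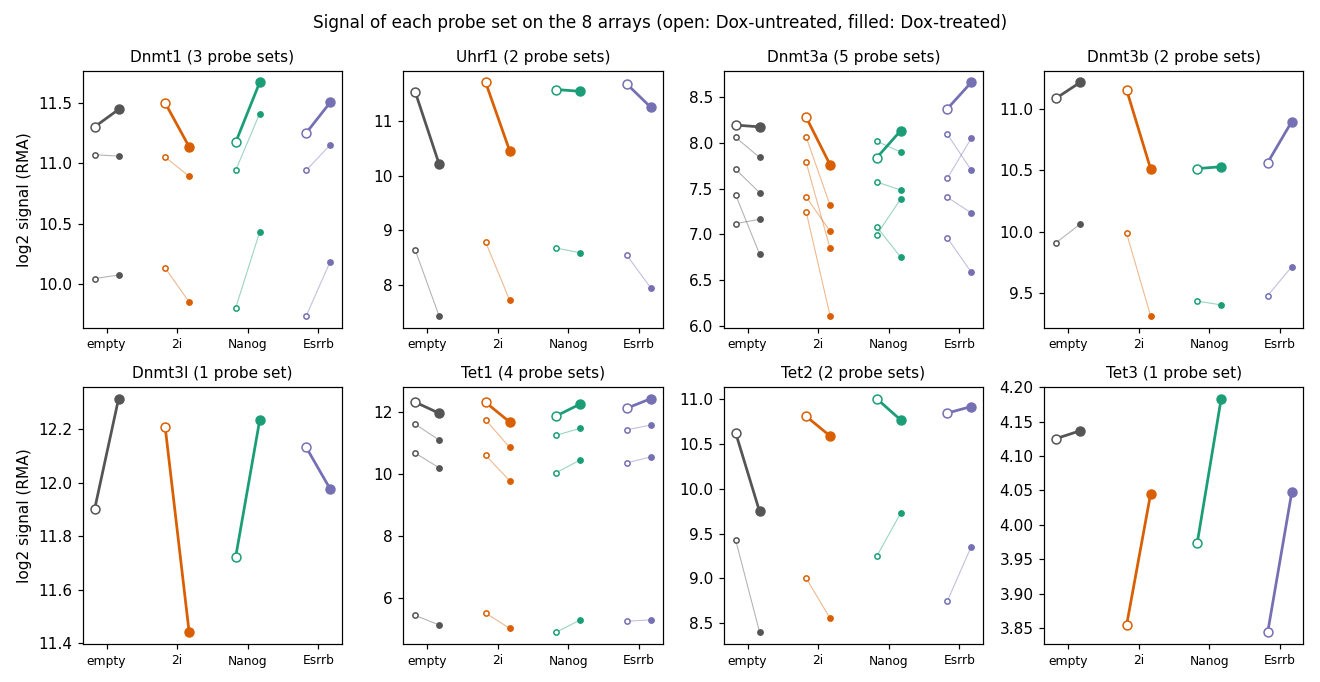
Log2 signal (RMA) of all 20 probe sets on the 8 arrays, 1 panel per gene with its own vertical scale; open points are Dox-untreated and filled points Dox-treated arrays, joined within a pair, with 1 array per point and no error bars. The heavy line is the probe set with the highest mean signal: for Uhrf1 it drops from 11.54 to 10.21 with the empty vector and from 11.71 to 10.46 in 2i, and it stays at or above 11.25 in the Nanog and Esrrb pairs.

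Uhrf1 had the lowest ratio of the family in the empty vector pair and in 2i. Its brighter probe set stood at 11.54, 11.71, 11.58 and 11.68 before Dox with the empty vector, in 2i, with Nanog and with Esrrb, and at 10.21, 10.46, 11.54 and 11.25 after Dox. The empty vector and 2i Dox-treated arrays were thus below all 6 others, with 39.9% and 42.0% of the Dox-untreated signal left. The log2 ratios were -1.33, -1.25, -0.03 and -0.43. The dimmer probe set gave -1.21, -1.06, -0.09 and -0.60, in the same order of arrays after Dox. Measured from the empty vector Dox-untreated array, the 2i ratios were -1.08 and -0.92, and that of Dnmt3a 1460324_at was lower than both, at -1.33. Within the 2i pair this Dnmt3a probe set had -1.14, below the dimmer probe set of Uhrf1. Uhrf1 was the only gene of the 8 with all of its probe sets over 2-fold lower in both the empty vector and the 2i pair.

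Dnmt1, the maintenance methyltransferase that Uhrf1 recruits, did not share this pattern. Its brightest probe set read 11.30, 11.50, 11.17 and 11.25 without Dox and 11.44, 11.14, 11.67 and 11.50 with Dox in the same backgrounds. All 8 values lay within 0.53, and the highest was on the Nanog Dox-treated array. Over its 3 probe sets the log2 ratio ran from -0.01 to 0.14 in the empty vector pair, from -0.36 to -0.16 in 2i, from 0.47 to 0.63 with Nanog and from 0.21 to 0.45 with Esrrb. The 2i Dox-treated array was the lowest of the 4 Dox-treated arrays in all 3 probe sets. Against the empty vector Dox-untreated array its 3 differences were between -0.19 and -0.16.

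**Figure D2:**
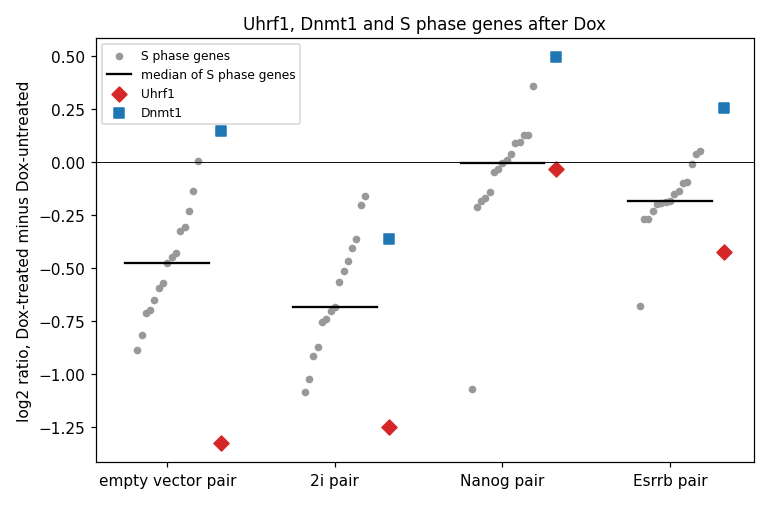
Log2 ratio (Dox-treated minus Dox-untreated) of Uhrf1 (diamond), Dnmt1 (square) and 15 S phase genes (grey points, with their median as a bar) in each pair, on the probe set of highest mean per gene. Uhrf1 lies below every S phase gene in the empty vector and 2i pairs, at -1.33 and -1.25, whereas Dnmt1 lies above the S phase median in all 4 pairs.

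Most genes of S phase were low on the same arrays as Uhrf1. The median log2 ratio over 15 genes was -0.48 in the empty vector pair, -0.68 in 2i, 0.00 (-0.0050 unrounded) with Nanog and -0.18 with Esrrb, and their summed linear signal after Dox was 52237, 48857, 67258 and 61621. Before Dox it lay between 67402 and 70755. Cdc6, which loads the replicative helicase, had ratios of -0.89, -1.02, 0.04 and -0.27. Ccne1, the G1/S cyclin, had -0.65, -1.09, 0.09 and -0.01, and Mki67, a marker of cycling cells, had -0.23, -0.74, 0.36 and 0.04. Measured from the empty vector Dox-untreated array, the 2i median was -0.58, with -0.81 for Cdc6, -1.25 for Ccne1 and -0.91 for Mki67. In limma's test of the response common to the 4 pairs 2 of the 15 passed, both lower, against 3.49% of all genes called lower and 3.86% called higher, and neither passed without the 2i pair. Mcm5, a subunit of the replicative helicase, fell by 0.31 (SE 0.06, adjusted p = 0.03918). The other was Tyms, the thymidylate synthase gene, with -0.70 (SE 0.13, adjusted p = 0.03444), but its signal lay between 3.99 and 5.36, at percentile 41.9, and its ratios of -0.48, -0.57, -1.07 and -0.68 were lowest with Nanog and not where Uhrf1 was low. The part of the cell cycle in the Uhrf1 values was not tested, and neither was that of the epithelial markers.

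The de novo genes had their lowest ratio of the 4 pairs in 2i, in all 8 of their probe sets. Dnmt3l, the cofactor, has 1 probe set and stood at 11.90, 12.21, 11.72 and 12.13 before Dox with the empty vector, in 2i, with Nanog and with Esrrb. After Dox it stood at 12.31, 11.44, 12.23 and 11.98. The 2i Dox-treated array was the lowest of all 8 and the empty vector Dox-treated array the highest. The log2 ratios were 0.41, -0.77, 0.51 and -0.16, and 58.8% of the Dox-untreated signal was left in 2i. Set against the empty vector Dox-untreated array the 2i ratio was -0.46.

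Dnmt3b, the main de novo enzyme of the early epiblast, stood at 11.09, 11.16, 10.51 and 10.56 before Dox in its brighter probe set. After Dox it stood at 11.22, 10.51, 10.53 and 10.90. The 2i Dox-treated array was thus near both Nanog arrays and the Esrrb Dox-untreated array. In the other probe set it was lower than these, at 9.31 against 9.43 and 9.40 with Nanog and 9.48 with Esrrb without Dox. The log2 ratios were 0.13, -0.64, 0.02 and 0.33, and the other probe set gave 0.15, -0.67, -0.03 and 0.24. Measured from the empty vector Dox-untreated array, the 2i ratios were -0.58 and -0.60.

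The 5 probe sets of Dnmt3a did not run alike. In 2i all 5 were lower after Dox, with log2 ratios of -0.38, -0.52, -0.75, -0.94 and -1.14. Probe set 1460324_at, the lowest of these, read 7.43, 7.25, 7.08 and 6.96 before Dox and 6.78, 6.11, 6.75 and 6.58 after, so its ratio was below 0 in every pair. The brightest, 1423066_at, read 8.19, 8.28, 7.84 and 8.37 before and 8.17, 7.76, 8.13 and 8.66 after, so it was above its Dox-untreated level in the Nanog and Esrrb pairs by 0.30 and 0.29. Probe sets 1423063_at and 1423065_at had ratios below 0 in all 4 pairs, as did 1460324_at, whereas 1423064_at resembled 1423066_at with 0.39 and 0.44 in the Nanog and Esrrb pairs. Dnmt3a is known to have a long and a short isoform from separate starts, and which of them each probe set detects was not analysed here. Against the empty vector Dox-untreated array the 5 differences of the 2i Dox-treated array ran from -1.33 to -0.08.

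**Figure D3:**
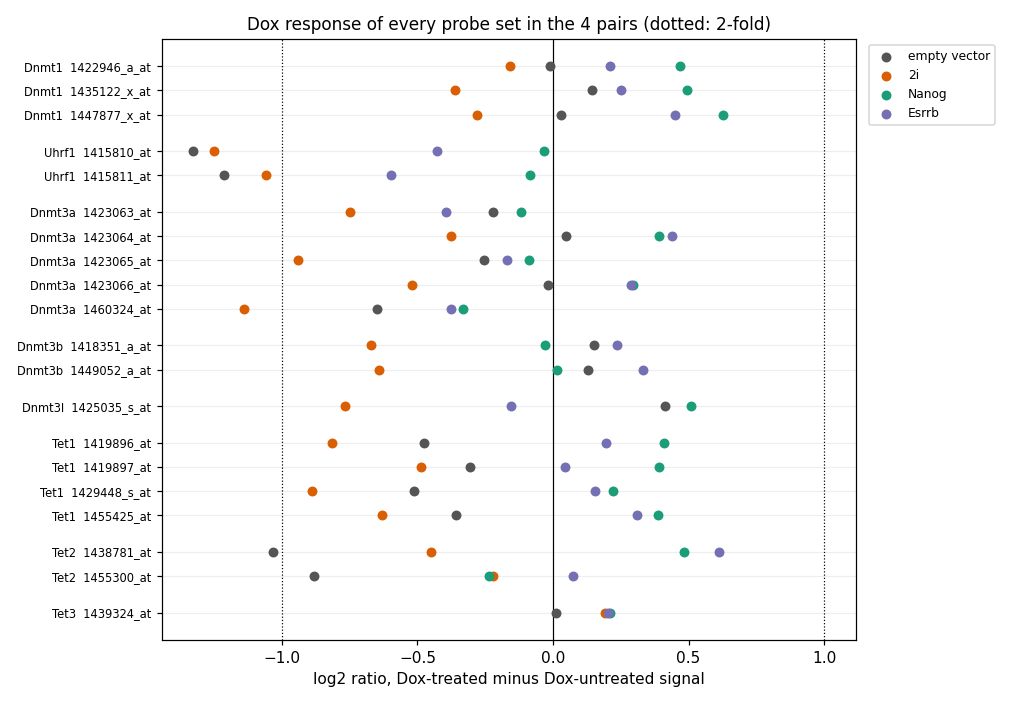
Log2 ratio of each of the 20 probe sets (rows, by gene) in the 4 pairs (colours), 1 array against 1 array, with dotted lines at 2-fold. The 2i points lie farthest left in 15 of 20 rows, those of Uhrf1, Tet2 and Tet3 excepted, and the Nanog and Esrrb points of Tet1 lie right of 0 while the empty vector and 2i points lie left of it.

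Among the dioxygenases, Tet1 is the main ESC enzyme. Its brightest probe set stood at 12.33, 12.32, 11.88 and 12.13 before Dox, in the same order of backgrounds, and at 11.97, 11.69, 12.27 and 12.44 after. The empty vector and 2i signals were lower after Dox and the Nanog and Esrrb signals higher, in all 4 probe sets. Their log2 ratios ran from -0.51 to -0.31 in the empty vector pair, from -0.89 to -0.49 in 2i, from 0.22 to 0.41 with Nanog and from 0.04 to 0.31 with Esrrb. The fourth probe set, 1419897_at, had a mean signal near the median of all probe sets, at percentile 48.5, where log2 ratios are compressed. Against the empty vector Dox-untreated array the 2i ratios were between -0.89 and -0.41.

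Tet2 differed from Tet1 in that its lowest array was not in 2i. The brighter probe set stood at 10.63, 10.81, 11.01 and 10.84 before Dox and at 9.75, 10.59, 10.77 and 10.92 after. In this probe set the empty vector Dox-treated array lay 0.84 below the next of the Dox-treated arrays, but in the other, where they read 8.40 and 8.55, the empty vector array was the lower by 0.15. The log2 ratios were -0.88, -0.22, -0.24 and 0.07, and those of the other probe set were -1.03, -0.45, 0.48 and 0.61. The probe sets thus had opposite signs in the Nanog pair. Measured from the empty vector Dox-untreated array, the 2i ratios were -0.04 and -0.88, so the probe sets of Tet2 also differed in 2i. Tet3, better known from the oocyte and from neurons, lay between 3.84 and 4.18 on all arrays, at percentile 30.2 of mean signal, and its ratios of 0.01, 0.19, 0.21 and 0.20 (-0.08 for 2i from the other reference) cannot be read as a response at that signal.

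Counted over the family, the 2i pair had log2 ratios below 0 in 19 of 20 probe sets, all but that of Tet3, with a median of -0.64 against 0.00 (0.0002 unrounded) over all probe sets. The empty vector pair had 13 of 20 below 0 and a median of -0.24, the Nanog pair 7 and a median of 0.26, and the Esrrb pair 6 and a median of 0.20. Over 2-fold lower were 3 probe sets with the empty vector (2 of Uhrf1 and 1 of Tet2), where 2.90% of all probe sets were, and 3 in 2i (2 of Uhrf1 and 1 of Dnmt3a), where 2.73% were. None was in the Nanog pair, against 0.887% of all, or in the Esrrb pair, against 0.745%, and none of the 20 was over 2-fold higher in any pair. With the empty vector Dox-untreated array in place of the doubtful reference, 20 of 20 probe sets were lower on the 2i Dox-treated array, with a median of -0.59 against -0.01 for all. Of these, 2 were over 2-fold lower against 3.71% of all. That contrast differs in 2i and in Dox at once, so it is not a Dox response within 1 background. With 1 array per condition none of these ratios has a replicate check.

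The order of the arrays shows the same feature. The 2i Dox-treated array held the lowest of the 8 signals in 12 of 20 probe sets (2 of 3 of Dnmt1, 4 of 5 of Dnmt3a, both of Dnmt3b, that of Dnmt3l and 3 of 4 of Tet1), as in 16.5% of all probe sets. It was the lowest of the 4 Dox-treated arrays in 16 of 20, against 25.8% of all, and the exceptions were Uhrf1 and Tet2. Tet3 counts among these 16 only by 4.0451 against 4.0470, a dim signal. The 2i ratio was the lowest of the 4 in 15 of 20, against 26.3% of all, and in 16 of 20 when measured from the empty vector Dox-untreated array, against 25.5%. Among probe sets above the median signal, as 18 of the 20 are, the shares were 20.4%, 27.8% and 30% in place of 16.5%, 25.8% and 26.3%. Probe sets of 1 gene share their transcript, so the counts above cover 5 or 6 genes and not as many separate observations.

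limma tested whether 2i stood apart, with the spread taken from the other 3 backgrounds. The Dox response of the 2i pair minus the mean of the other pairs was below 0 in 18 of 20 probe sets, with a median of -0.66 against 0.02 over all. None passed, and 0 of 45101 probe sets did (0%), although 3631 of all and 8 of the 20 had an unadjusted p under 0.05. The largest difference was that of Dnmt3l, -1.02 (SE 0.28, adjusted p = 0.4826), and the smallest adjusted p was that of Dnmt3b 1449052_a_at, -0.80 (SE 0.19, adjusted p = 0.4377). The level on the 2i Dox-treated array alone, against the mean of the other Dox-treated arrays, does not use the doubtful array. It was lower in 19 of 20, with a median of -0.50, and none passed here either, of the 20 or of all (0%), with 3417 of all and 4 of the 20 at an unadjusted p under 0.05. Dnmt3l was lower by 0.73 (coefficient -0.73, SE 0.17, adjusted p = 0.5199), Dnmt3b by 0.37 (coefficient -0.37, SE 0.30, adjusted p = 0.8461) and Uhrf1 by 0.55 (coefficient -0.55, SE 0.55, adjusted p = 0.886) in their brightest probe sets. Leaving out 1 of the other Dox-treated arrays moved the last 2: Dnmt3b was at -0.20 without the empty vector and -0.55 without the Nanog array, and Uhrf1 at -0.94 and -0.28. Uhrf1 was higher in 2i than with the empty vector after Dox, by 0.24.

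The 2i result turned on the empty vector pair. Without it, when the spread came from the Nanog and Esrrb pairs only, 14 of the 20 probe sets of 7 genes passed, all lower in 2i, against 4.96% of all probe sets called lower; the differences of the brightest probe sets were -0.74 for Dnmt1, -0.81 for Dnmt3a, -0.82 for Dnmt3b, -0.94 for Dnmt3l, -1.02 for Uhrf1 and -0.98 for Tet1. Without the Nanog or the Esrrb pair none passed. A spread from these 2 pairs has 1 residual degree of freedom.

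**Figure D4:**
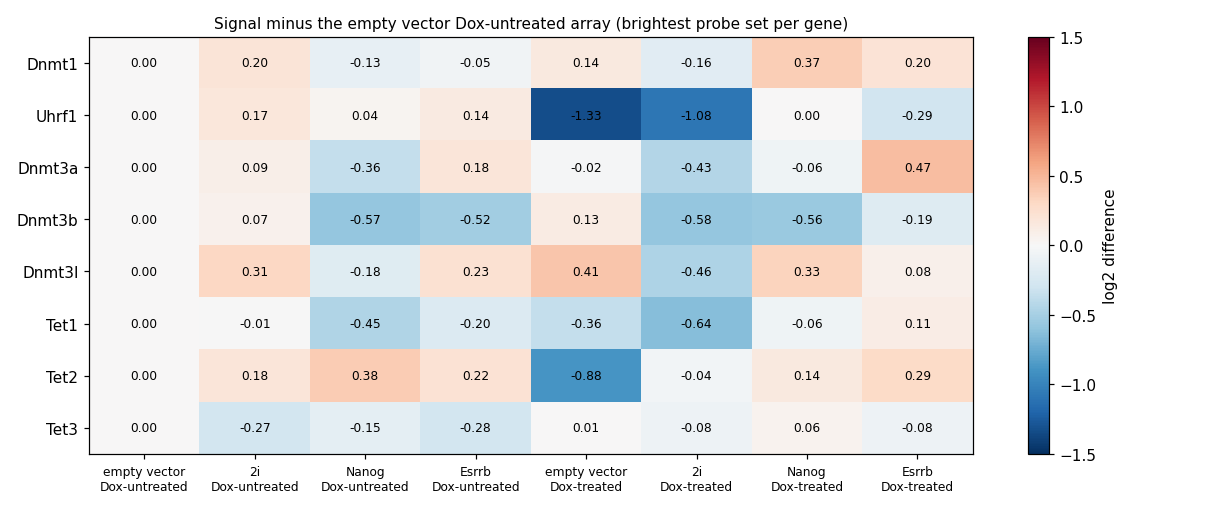
Log2 signal of the brightest probe set of each gene minus that of the empty vector Dox-untreated array, for the 4 Dox-untreated arrays (left) and the 4 Dox-treated arrays (right), with the value in each cell and 1 array per column. Dnmt3b is at -0.57 and -0.52 on the Nanog and Esrrb Dox-untreated arrays and at -0.58 on the 2i Dox-treated array, and Uhrf1 is at -1.33 and -1.08 on the empty vector and 2i Dox-treated arrays.

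The Nanog and Esrrb pairs were then set against the empty vector and 2i pairs, since the study asked whether forced Nanog or Esrrb preserves ESCs that lack NS. The difference in Dox response was above 0 in 20 of 20 probe sets, with a median of 0.55 against 0.00 (-0.0005 unrounded) over all. None of the 20 passed at an adjusted p of 0.05, while 112 of all probe sets did, which is 0.248%. An unadjusted p under 0.05 was found in 12 of the 20, against 13.5% of all probe sets. The smallest adjusted p was 0.0617, shared by Uhrf1 1415810_at with a difference of 1.06 (SE 0.16) and Tet1 1455425_at with 0.84 (SE 0.12). Tet2 1438781_at had the largest difference, 1.29 (SE 0.23, adjusted p = 0.08269). Both Nanog and Esrrb ratios lay above both empty vector and 2i ratios in 15 of 20 probe sets. This held in 22.5% of all and in 29.2% of those above the median signal. The probe sets of Dnmt3b and Dnmt3l were among the exceptions.

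Without the 2i pair, and so without the doubtful array, 7 of the 20 probe sets passed, all higher in the Nanog and Esrrb pairs, against 4.02% of all called higher. They were both of Uhrf1, both of Tet2 and 3 of Tet1, and the difference of the brightest was 1.10 for Uhrf1, 0.71 for Tet1 and 0.80 for Tet2. Without the empty vector pair the comparison is the 2i difference above with the sign turned, and 14 passed. Without the Nanog or the Esrrb pair none passed. The comparison of these pairs and that of 2i with the other backgrounds use the same 8 arrays and are not separate evidence.

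The Dox response common to the 4 backgrounds was called in 6.01% of all probe sets and in none of the 20. An unadjusted p under 0.05 was found in 4 of the 20, against 24.2% of all probe sets. The nearest were Dnmt3a 1460324_at with -0.62 (SE 0.16, adjusted p = 0.07127) and the probe sets of Uhrf1 with -0.74 (SE 0.19, adjusted p = 0.07572) and -0.76 (SE 0.22, adjusted p = 0.09636). The median of the 20 was -0.08 against -0.01 over all. For Dnmt3l and Dnmt3a the mean response of the brightest probe set was 0.00 (0.0002 unrounded) and 0.01, the sum of responses of opposite sign.

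Without Dox, the Nanog and Esrrb arrays already held the lower values of some of these genes. Both lay below both the empty vector and the 2i Dox-untreated array in 11 of 20 probe sets, against 18.6% of all: 3 of 3 of Dnmt1, both of Dnmt3b, 4 of 4 of Tet1 and 2 of 5 of Dnmt3a. Without the 2i Dox-untreated array, both lay below the empty vector array in 13 of 20, against 34.2% of all. The difference from the empty vector array was -0.57 with Nanog and -0.52 with Esrrb in the brighter probe set of Dnmt3b, and -0.45 and -0.20 in the brightest of Tet1. For Dnmt1 it was -0.13 and -0.05. This difference was not tested, and these lower Dox-untreated values enter the ratios of the Nanog and Esrrb pairs above.

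Of 7 partner genes of Dnmt1 and Uhrf1, Hells, Cdca7, Lig1 and Pcna had their lower ratios in the empty vector and 2i pairs. Hells, a chromatin remodeller needed for methylation, had log2 ratios of -0.71, -0.98, -0.10 and -0.26, with the backgrounds in the order used above. Cdca7, which activates Hells, had -0.50, -0.89, 0.01 and -0.02, and Lig1, the ligase that joins Okazaki fragments, had -0.69, -0.88, -0.04 and -0.13. From the other reference their 2i ratios were -0.86, -0.91 and -0.68. Of the 7 genes 1 passed the test of the common response, where 3.49% of all genes were lower: Uhrf2, a relative of Uhrf1, fell by 0.56 (SE 0.10, adjusted p = 0.03183), with ratios between -0.64 and -0.40 in all 4 pairs, and not without the 2i pair (adjusted p = 0.08615). Cdca7l had -0.34, 0.03, 0.29 and 1.06, and Usp7, a deubiquitinase that binds Dnmt1 and Uhrf1, stayed between -0.01 and 0.10.

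Regulators of methylation in ESCs gave no call among 10 genes. Over all genes, the common response was called higher in 3.86% and lower in 3.49%, so no call in so short a list says little. Dppa3, whose product keeps Uhrf1 off chromatin, had ratios of 0.24, 2.04, -0.37 and 0.25, so its high value was on the 2i Dox-treated array, at 1.57 above the empty vector Dox-untreated array. Prdm14, a repressor of the de novo enzymes in naive cells, had -1.81, 0.17, 0.04 and 0.11, so it was low with the empty vector after Dox. Setdb1 and Zfp57, which act at imprinted and retroviral sequences, stayed between -0.44 and 0.41. No call was made among 7 methyl-CpG readers, also a short list beside these shares, and their ratios ran from -0.40 to 0.66.

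Genes of the oxidation and base excision repair list gave 3 calls of 14, all higher, against 3.86% of all genes, and only Idh1 also passed without the 2i pair. Xrcc1, the scaffold of single-strand break repair, rose by 1.20 (SE 0.22, adjusted p = 0.03583) over the 4 pairs, with ratios of 1.95, 1.47, 0.72 and 0.66. Gadd45g, a stress-induced gene linked to demethylation, rose by 1.46 (SE 0.31, adjusted p = 0.04568) and by as much as 2.69 with the empty vector. Idh1 rose by 0.99 (SE 0.08, adjusted p = 0.01004), with ratios between 0.83 and 1.12, and its product 2-oxoglutarate is the cosubstrate of the Tet enzymes. Gadd45a and Gadd45b did not pass. Of 5 genes of methyl donor supply 1 was called, against 3.49% of all genes called lower. It was Mthfd2, a mitochondrial folate enzyme, which fell by 0.74 (SE 0.09, adjusted p = 0.01803).

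Germline genes that promoter methylation is known to silence gave calls in both directions. Of 13 measured, 1 was called higher and 3 lower in the common response, against 3.86% and 3.49% of all genes, and none of the 4 passed without the 2i pair. Dazl, an RNA-binding protein gene of germ cells, rose by 1.36 (SE 0.28, adjusted p = 0.04527), and its ratios of 1.53, 2.28, 0.34 and 1.30 were highest in 2i, also from the other reference, at 2.31. Sycp3, a component of the meiotic chromosome axis, fell by 1.91 (SE 0.27, adjusted p = 0.02124), with Sycp1 at -0.91 (SE 0.17, adjusted p = 0.03471) and Tex101 at -0.52 (SE 0.11, adjusted p = 0.04663). The signal of Tex101 lay between 4.37 and 5.51, at percentile 44.8, where a response is hard to read. Hormad1 had 0.71, 1.51, -0.08 and 0.72, and Taf7l had -0.24, -0.97, -2.48 and -1.54, neither past the threshold. The median over the list was -0.18, -0.08, -0.76 and 0.03 in the 4 pairs.

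Markers of the pluripotent state set the background for these values. The median over 8 naive markers was -1.08 with the empty vector and between -0.15 and -0.02 in the other pairs, and none of the 8 passed a test. Of 7 primed epiblast markers only Otx2 passed, and it fell by 2.36 (SE 0.38, adjusted p = 0.02679), from -1.36 with Esrrb to -3.90 in 2i. Of 6 ESC markers Lin28a fell by 1.13 (SE 0.22, adjusted p = 0.03804) and Sall4 by 0.40 (SE 0.08, adjusted p = 0.04164), while Utf1 had 0.31, -1.12, 0.38 and 0.56. Over all genes, the common response was called lower in 3.49% and higher in 3.86%. Of the epithelial markers Gata3 was the only one past a test, with a smaller response in the Nanog and Esrrb pairs (difference -2.07, SE 0.25, adjusted p = 0.0489). That difference was called in 0.248% of all probe sets. The signal of Gata3 was dim, between 3.81 and 6.18 and at percentile 38, and its adjusted p was close to the threshold. The part of all these markers in the values of the 8 genes was not tested.

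The genes most like Uhrf1 and Tet2 across the 8 arrays, the only members with a range of 1 or more in their brightest probe set, were sought among 11590 genes above the median signal. For Uhrf1 they were Fkbp5 with a Pearson r of 0.993, Spg7 with 0.992 and Cuta with 0.988. For Tet2 they were Coil with 0.989, Nsun4 with 0.985 and Add3 with 0.980. Fkbp5 stood at 9.92 and 10.06 after Dox with the empty vector and in 2i, and at or above 10.89 on the others. Add3 stood at 6.84 on the empty vector Dox-treated array and at or above 8.05 elsewhere. These correlations are descriptions over 8 arrays that share their normalization.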

How the data were processed

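RNA of 8 conditions was measured on Affymetrix mouse arrays, 1 each. The authors subtracted background and normalized with RMA (affy in R, versions not given in the sources used here), and the deposited log2 signals were used as they are. Because RMA gives every array the same distribution of values, a change of all genes in 1 direction is invisible here. The log base was read from the values, which run from 1.82 to 14.6. Array medians lay between 5.31 and 5.36, and for arrays their number limits the precision. Of 45101 probe sets, 34958 carry 1 gene symbol in the platform annotation, 932 several and 9211 are unnamed here. Of those with 1 symbol, 34754 matched RefSeq by Entrez ID.

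limma 3.58.1 in R 4.3.3 (lmFit, eBayes with a trend) was fitted over all probe sets with the background as a block, with Benjamini-Hochberg adjustment and a threshold of 0.05. The 4 tests were the common Dox response (3 residual degrees of freedom), the mean response of the Nanog and Esrrb pairs minus the mean of the empty vector and 2i pairs, the 2i response minus the mean of the others, and the 2i Dox-treated level minus the mean of the other Dox-treated arrays (2 each). The backgrounds stand in for replicates, and a lone array or pair is assumed to vary like the others. Ratios within a pair have no test. Over 2-fold means a log2 ratio past 1 in size. The fits were tested on simulated data.

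Every probe set of the 8 genes is reported. Other lists were written by hand from general knowledge, on the probe set of highest mean per gene, and the genes named from them pass a test or are among up to 4 per list with the largest range over the arrays. Pcna, Usp7, Dppa5a, Cdx2, Elf5, Hand1, Etv4, Spry2, Nanog and Esrrb were named after their values were seen. Promoter letters and the genes named for them were chosen after the values were seen. The members and lists were chosen with earlier results of these data known. The alternatives were gene-level values, a filter on dim probe sets, other scalings, no trend, thresholds of 1.5-fold and 3-fold and leaving out each pair. The order of arrays under other scalings and with another 2i reference, or without the 2i Dox-untreated array, was added after seeing the data. Other steps used Python 3.11.15, numpy 2.4.6, pandas 2.3.3 and matplotlib 3.10.9. Cells with mutant Stat3 are not analysed here.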

Additional observations from a re-analysis of the deposited data

Results flagged for a closer look

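In 11 probe sets the Dox responses of 2 kinds of background had opposite signs in all their pairs, which was not called by limma's test of the difference. The share of all probe sets with such signs was not counted, so the 11 cannot be set against it. A looser order, with both Nanog and Esrrb ratios above both other ratios, held in 22.5% of all. The 2i ratio was the lowest of the 4 in 26.3% of all. For Tet1 all 4 probe sets were lower after Dox in the empty vector and 2i pairs and higher in the Nanog and Esrrb pairs, with differences in response of 0.95, 0.61, 0.89 and 0.84. The same division was seen for 1 probe set of Tet2 (1.29), 1 of Dnmt1 (0.42) and 1 of Dnmt3a (0.56). In the others the 2i pair was lower and the other 3 pairs higher after Dox: 2 probe sets of Dnmt1 (-0.66 and -0.65), 1 of Dnmt3a (-0.67) and 1 of Dnmt3b (-0.80). Each sign rests on 1 array against 1 array, and some ratios were near 0. With the empty vector they were -0.01 for Dnmt1 1422946_a_at, -0.02 for Dnmt3a 1423066_at and 0.03 for Dnmt1 1447877_x_at. With Nanog, Dnmt3b 1449052_a_at had 0.02. The Dnmt3a ratio turned to 0.0041 under another quantile normalization, and the Dnmt3b ratio to -0.03 after centring. The 2i Dox-untreated array, which did not show MEK inhibition, enters all 11 differences. Measured from the empty vector Dox-untreated array, the 2i ratio was below 0 in 20 of 20 probe sets.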

How the results depend on the processing

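Arrays were paired by background, which was the block of the fits, and no condition has numbered replicates for a replicate block. Leaving out a pair changed most: the common response was called in 3 to 272 probe sets against 2712, the difference of the Nanog and Esrrb pairs in 0 to 4050 against 112, and the 2i difference in 0 to 4050 against 0, with 0 to 14 of the 20 probe sets of these genes called in each difference. The fits with 3 pairs have 1 residual degree of freedom for a difference. With 1 probe set per gene the common response was called in 1287 genes and the difference of the Nanog and Esrrb pairs in 15; with probe sets averaged per gene in 871 and 1; that difference was called in 0 among bright probe sets and in 1 without a trend. At 1.5-fold and 3-fold, 5 and 0 of the 20 probe sets were lower in the empty vector pair, 11 and 0 in 2i, and at 1.5-fold 1 in the Esrrb pair. The remaining changes of direction were in values that passed no test. The common response of Dnmt3a became -0.24 with its probe sets averaged and 0.00 (-0.0019 unrounded) after centring, and leaving out a pair gave -0.08 (-0.0839) to 0.19. That of Dnmt3l became -0.01 under centring (-0.0130) and another quantile normalization (-0.0082), and -0.17 to 0.26 with a pair left out. Leaving out a pair also gave up to 0.16 for Dnmt3b (without 2i; -0.17 at the lowest) and -0.23 to 0.11 for Tet1. The difference of the Nanog and Esrrb pairs for Dnmt3l then ran from -0.24 to 0.94, and the 2i difference from -0.14 to 0.34 for Tet2 and from -0.02 (-0.0160) to 0.08 (0.0833) for Tet3. With its probe sets averaged, the 2i difference of Tet2 was -0.17 and its 2i level -0.25, which ran from -0.25 to 0.33 with an array left out.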
